A study of Homo sapiens with 12 samples.

Results

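The cyclin-dependent kinase (CDK) inhibitors are encoded by 7 genes, which were taken by name from the 57773 genes listed in the count files and which were all among the 21518 genes tested: CDKN1A (the protein p21), CDKN1B (p27) and CDKN1C (p57) of the CIP/KIP family, and CDKN2A (p16INK4a and p14ARF), CDKN2B (p15), CDKN2C (p18) and CDKN2D (p19) of the INK4 family. Their mRNAs were measured by bulk RNA sequencing of WI-38, a human diploid fibroblast line of fetal lung origin used at low population doublings, in 4 groups of 3 libraries each. All cells had been transfected with pooled siRNAs at 25 nM before treatment. Proliferating cells received a non-targeting pool (siCtrl) and the vehicle DMSO. The other groups were kept for 8 days in 50 µM etoposide, a topoisomerase II inhibitor that breaks DNA and drives these fibroblasts into senescence, and received siCtrl, a pool against the mRNA of the receptor TrkB (siNTRK2) or a pool against the mRNA of its ligand BDNF (siBDNF). Every library came from 1 cell line, each target was silenced with 1 siRNA pool, and the labels do not say whether the replicates were separate cultures. The study states for its cell culture work in general that experiments were repeated independently with the groups handled together, without tying these libraries to experiments, so that the p-values measure the spread between these libraries, which may be in part technical.

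CDK inhibitors are a brake on the cell cycle. INK4 proteins bind the monomeric kinases CDK4 and CDK6 and keep D-type cyclins from activating them, whereas CIP/KIP proteins bind assembled cyclin-CDK complexes, above all those of CDK2. With the kinases inhibited, the RB proteins stay unphosphorylated and hold E2F factors off the genes needed for S phase, and p21 and p16INK4a are therefore among the most used markers of senescent fibroblasts. CDKN1A is a classical p53 target, while CDKN2A and CDKN2B lie side by side on chromosome 9 in a locus that Polycomb complexes silence in dividing cells.

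The libraries held between 31567912 and 72328151 counts, so that the limit of detection, set at 3 counts, lay between 0.0427 and 0.0916 CPM (counts scaled to library size after TMM normalization, the scale of all levels below). It covers counting error only, and every CDK inhibitor mRNA was above it in every library, the lowest count being 51. The label of fibroblasts was checked with 10 fibroblast markers, which were all present and summed to between 23264 and 34172 CPM, whereas the 4 endothelial markers that could be matched reached at most 3.57 CPM, the 5 epithelial markers 57.5 CPM (mostly KRT19), and the 5 immune markers 183 CPM with siBDNF (mostly CD68, a lysosomal gene). The 5 smooth muscle markers were higher than these other lists, at between 384.7 and 535.4 CPM in sum. The defining leukocyte genes PTPRC and CD3E were at 0 in all proliferating libraries but not in the senescent groups, where their means reached 1.0 and 0.155 CPM; the part of such markers in the results was not tested. NTRK2 mRNA had 7, 15 and 10 counts in senescent siCtrl cells and 0 counts in each siNTRK2 library, and BDNF mRNA went from 162 ± 6.32 CPM (SD, n = 3) in senescent siCtrl cells to 47.1 ± 2.44 CPM (SD, n = 3) with siBDNF. In the other silenced group BDNF mRNA was higher than with siCtrl, at 204.8 ± 1.20 CPM with siNTRK2 (SD, n = 3; on the log2 scale 0.33, adjusted p = 8.35e-06 by edgeR), and NTRK2 mRNA, at 0.356 CPM with siBDNF against 0.185 CPM, was not called (adjusted p = 0.356 by edgeR). The antisense gene BDNF-AS went the same way as BDNF, from 45.3 CPM with siCtrl to 12.4 CPM with siBDNF (-1.86 on the log2 scale) and 55.5 CPM with siNTRK2 (0.29), and whether its reads were counted apart from those of BDNF is not given in the sources used here.

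Regulatory sequences of 4 inhibitors, chosen with their values known and each for the reason given with it, were read from the reference to set beside those values. CDKN1A is shown first, because p53 acts on it at a distance. The p53 response element was searched on both strands, in windows from 2500 bases before to 500 bases after the start of the canonical transcript. It was taken as a pattern of 20 bases, made of 2 half-sites without a gap. The core of each half-site (C, 2 bases of A or T, then G) had to be intact, and up to 2 mismatches were allowed elsewhere. Under this rule a match was found in CDKN1A alone among the 7 genes, at chr6:36644226-36644245 (GRCh37, plus strand), with its first base at -2265 from the start. Such a match was present in 261 of 19122 windows of protein-coding genes (1.36%), and it is a description of letters, not a measured site. The match is in capitals, with 20 bases on either side.

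CDKN1A p53-type element: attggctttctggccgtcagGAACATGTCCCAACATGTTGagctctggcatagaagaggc

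The following windows span 250 bases before to 50 bases after a transcription start, as given by RefSeq (GRCh38.p14), and were placed on GRCh37 by an exact match. Promoter windows were available for 6 of the 7 genes; CDKN1C was not matched. The windows shown are those of CDKN1A (chr6:36646241-36646540, plus strand) and CDKN2B (chr9:22009255-22009554, minus strand), the inhibitors whose mRNA differed between the silencing groups, both starts of CDKN2A (upstream start at chr9:21995274-21995573 and downstream start at chr9:21974807-21975106, minus strand), because the counts of this gene join the transcripts of p14ARF and p16INK4a, and the GC-rich start of CDKN2C (chr1:51434128-51434427, plus strand), the inhibitor with the deepest loss in senescence. Capitals mark GC boxes (GGGCGG on either strand), the site of SP1-type factors.

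CDKN1A promoter: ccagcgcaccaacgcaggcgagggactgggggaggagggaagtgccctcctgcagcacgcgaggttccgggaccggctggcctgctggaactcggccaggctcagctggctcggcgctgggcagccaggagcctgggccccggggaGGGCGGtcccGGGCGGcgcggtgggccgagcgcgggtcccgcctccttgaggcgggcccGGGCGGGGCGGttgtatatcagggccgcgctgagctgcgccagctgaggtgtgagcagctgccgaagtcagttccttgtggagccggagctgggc
CDKN2A upstream promoter: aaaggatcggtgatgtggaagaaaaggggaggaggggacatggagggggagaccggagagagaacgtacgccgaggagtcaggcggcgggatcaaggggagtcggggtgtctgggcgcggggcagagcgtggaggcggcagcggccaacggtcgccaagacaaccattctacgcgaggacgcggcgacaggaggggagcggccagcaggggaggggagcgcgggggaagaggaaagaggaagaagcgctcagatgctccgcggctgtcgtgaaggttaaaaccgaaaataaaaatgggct
CDKN2A downstream promoter: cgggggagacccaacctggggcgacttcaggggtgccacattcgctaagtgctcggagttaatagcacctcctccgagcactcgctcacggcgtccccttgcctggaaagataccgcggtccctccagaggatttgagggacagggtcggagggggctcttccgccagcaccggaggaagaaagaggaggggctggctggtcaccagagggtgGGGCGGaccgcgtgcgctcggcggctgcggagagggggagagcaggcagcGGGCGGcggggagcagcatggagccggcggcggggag
CDKN2B promoter: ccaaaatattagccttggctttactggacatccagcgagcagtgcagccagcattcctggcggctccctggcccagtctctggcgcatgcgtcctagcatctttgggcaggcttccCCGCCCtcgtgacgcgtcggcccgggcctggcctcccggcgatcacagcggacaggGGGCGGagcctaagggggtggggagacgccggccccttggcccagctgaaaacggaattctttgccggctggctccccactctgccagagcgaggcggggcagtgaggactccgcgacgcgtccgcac
CDKN2C promoter: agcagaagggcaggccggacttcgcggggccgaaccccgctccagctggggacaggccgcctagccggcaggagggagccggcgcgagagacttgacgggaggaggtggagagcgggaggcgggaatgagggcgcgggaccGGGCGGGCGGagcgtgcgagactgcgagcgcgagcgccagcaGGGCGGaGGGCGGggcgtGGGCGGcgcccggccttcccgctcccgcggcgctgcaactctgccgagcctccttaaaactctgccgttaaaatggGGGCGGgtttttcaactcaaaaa

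GC boxes numbered 4 in the CDKN1A window, 2 in that of CDKN2B, 0 and 2 in the upstream and downstream windows of CDKN2A and 6 in the CDKN2C window shown, which was chosen for them. The other windows of CDKN2C held 0 and 1, that of CDKN1B 1 and that of CDKN2D 3, while 45% of all 35116 promoter windows held at least 1. GC boxes can overlap, as they do in CDKN1A and CDKN2C. None of the 9 windows of the 6 genes held a TATA box (TATAAA), found in 11.5% of all windows, or a CHR element of cell cycle genes (its core TTTGAA), found in 15.2%. E2F elements were searched for on both strands in 4 spellings: the canonical TTTCCCGC, the related form TTTCGCGC, another, spelled TTTGCCGC, and finally the form TTTGGCGC. These were absent from the 9 windows and present in 3.31% of all windows.

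The first comparison asked how the inhibitors differ between senescent and proliferating cells. All 7 mRNAs changed between the siCtrl groups by edgeR's quasi-likelihood test (adjusted p under 0.05): those of CDKN1A, CDKN2A, CDKN2B and CDKN2D rose, and those of CDKN1B, CDKN1C and CDKN2C fell. In this comparison 58.1% of all tested genes were called, so that a call by itself says little about an inhibitor, and the sizes carry the description. With the study's additional requirement of an absolute log2 fold change over 1, 16.7% of genes were called, and 2 inhibitors, CDKN1A upward and CDKN2C downward. In bulk RNA, a change in the number of cells that express a gene cannot be told apart from a change per cell.

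**Figure D1:**
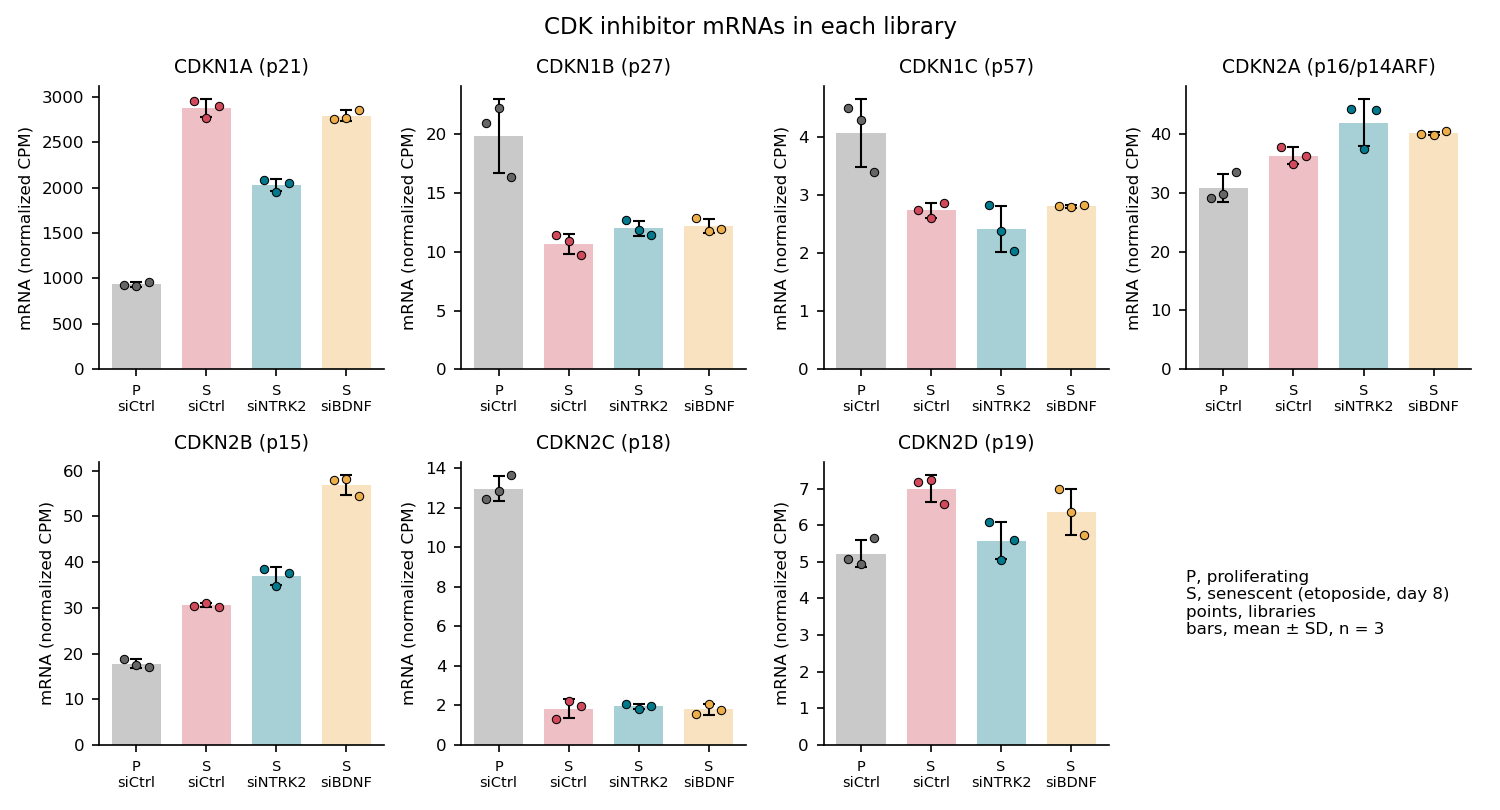
Normalized CPM (vertical axes, each from 0) of the 7 CDK inhibitor mRNAs in proliferating (P) and senescent (S) WI-38 cells; points are libraries, and bars with whiskers are the mean ± SD of 3 libraries. CDKN1A is high in all senescent groups and lower with siNTRK2 than with siCtrl or siBDNF, CDKN2B is highest with siBDNF, and CDKN2C is low in every senescent library.

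CDKN1A (ENSG00000124762, chr6:36644237-36655114, plus strand of GRCh37), whose product p21 blocks CDK2 complexes, was measured at 929, 913 and 966 CPM in proliferating libraries and at 2961, 2774 and 2896 CPM in senescent siCtrl libraries. The groups were far apart, and the mRNA was 3.07-fold higher in senescent cells (log2 fold change 1.62, standard error (SE) 0.042, adjusted p = 1.98e-20 by edgeR). Among the 20084 tested genes with a transcript length, its level per kilobase ranked 176th in proliferating cells and 43rd in senescent siCtrl cells.

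CDKN2C (chr1:51426417-51440306, plus strand), which encodes the CDK4 and CDK6 inhibitor p18, moved the other way. It stood at 12.4, 12.8 and 13.6 CPM in proliferating libraries and at 1.32, 2.24 and 1.96 CPM in senescent siCtrl libraries. The senescent libraries lay far below every proliferating one, a 7.02-fold lower level (log2 fold change -2.81, SE 0.14, adjusted p = 1.34e-14 by edgeR), and only 110 of the 21518 tested genes fell by more on the log2 scale.

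The remaining INK4 mRNAs rose by less. CDKN2B (chr9:22002902-22009304, minus strand), the gene of the TGF-β-responsive inhibitor p15, was measured at 18.8, 17.6 and 17.02 CPM in proliferating and at 30.4, 31.1 and 30.3 CPM in senescent siCtrl libraries. The groups did not overlap (log2 fold change 0.78, SE 0.061, adjusted p = 4.69e-11 by edgeR). CDKN2A (chr9:21967751-21995300, minus strand), the gene of the senescence marker p16INK4a and of p14ARF, which protects p53 from MDM2, was at 29.1, 29.9 and 33.5 CPM in proliferating and at 37.8, 35.01 and 36.3 CPM in senescent siCtrl libraries. The ranges were separate but close, and the rise was small (log2 fold change 0.24, SE 0.067, adjusted p = 0.00306 by edgeR). CDKN2D (chr19:10677136-10679735, minus strand), the gene of the CDK4 and CDK6 inhibitor p19, went from 5.08, 4.94 and 5.66 CPM to 7.18, 7.24 and 6.58 CPM, again without overlap (log2 fold change 0.43, SE 0.11, adjusted p = 0.00148 by edgeR). The calls of CDKN2A and CDKN2D were lost when the dependence of each library on transcript length and base composition was fitted and taken out (log2 fold changes 0.03 and 0.20, adjusted p = 0.698 and 0.0854 by edgeR), whereas those of the other 5 inhibitors were not.

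The remaining CIP/KIP mRNAs fell. CDKN1B (chr12:12838432-12875303, plus strand) encodes p27, which holds CDK2 inactive in resting cells. Its mRNA stood at 20.9, 22.3 and 16.3 CPM in proliferating and at 11.4, 10.9 and 9.73 CPM in senescent siCtrl libraries. Each senescent library was below the lowest proliferating one (log2 fold change -0.90, SE 0.094, adjusted p = 9.91e-09 by edgeR). CDKN1C (chr11:2904443-2907005, minus strand), an imprinted gene whose product p57 restrains the cell cycle during development, had the lowest mean level per kilobase of the inhibitors in each group. It went from 4.50, 4.30 and 3.41 CPM to 2.74, 2.60 and 2.87 CPM (log2 fold change -0.58, SE 0.14, adjusted p = 0.00126 by edgeR), and these groups did not overlap either.

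Levels were compared between the genes per kilobase of the canonical transcript (GENCODE). On this scale CDKN1A made up between 87.2% and 87.6% of the summed inhibitor mRNA in proliferating libraries and between 95.8% and 96.0% in senescent siCtrl libraries. CDKN2A came next, with 6.23% of the sum in proliferating and 2.62% in senescent siCtrl cells, although its own level was higher in the latter. In proliferating cells the order by CPM per kilobase was CDKN1A (442), CDKN2A (31.5), CDKN2C (13.02), CDKN1B (8.23), CDKN2B (4.62), CDKN2D (3.67) and CDKN1C (2.30), and no neighbours in it overlapped. In senescent siCtrl cells it was CDKN1A (1359), CDKN2A (37.2), CDKN2B (7.95), CDKN2D (4.91), CDKN1B (4.43), CDKN2C (1.85) and CDKN1C (1.55), where the libraries of CDKN2D and CDKN1B overlapped, and so did those of CDKN2C and CDKN1C. Among the INK4 genes, CDKN2C thus went from second to last in senescence, and the ratio of CDKN2D to CDKN2C counts from between 0.386 and 0.415 to between 3.23 and 5.45.

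**Figure D2:**
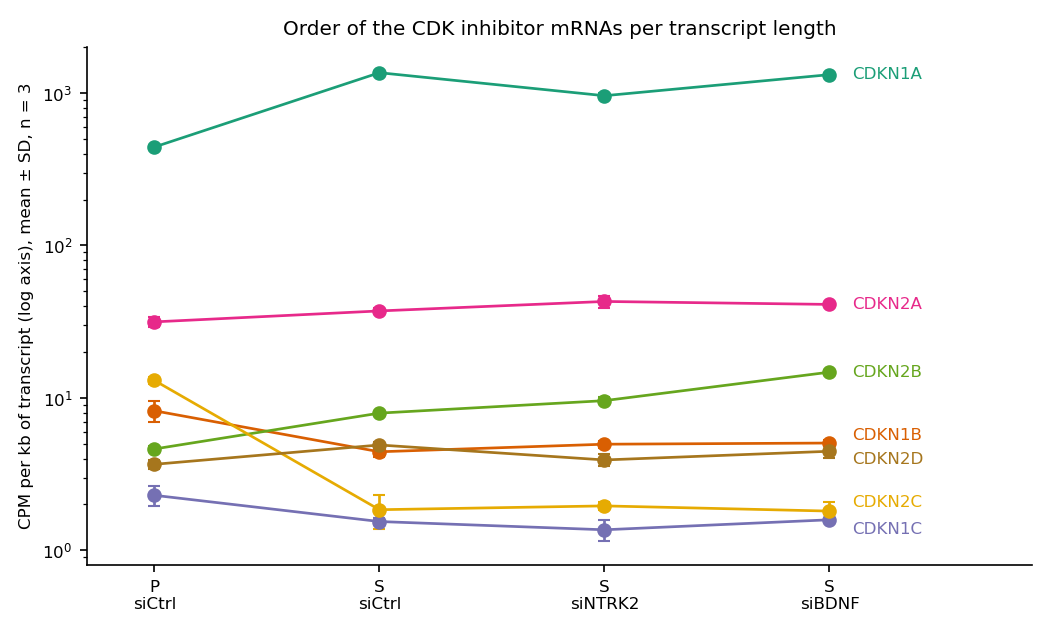
CPM per kilobase of canonical transcript (vertical log axis) of the 7 CDK inhibitor mRNAs in the 4 groups; points with whiskers are the mean ± SD of 3 libraries, and lines join the points of 1 gene. CDKN1A lies over 10 times above every other inhibitor in each group, CDKN2C drops from the third to the sixth place in all senescent groups, and CDKN2B climbs to 14.8 with siBDNF.

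The next comparisons asked which inhibitor mRNAs differed in senescent cells that received siNTRK2 or siBDNF. Each target was silenced with 1 pool, and NTRK2 mRNA was already low with siCtrl. Effects of a pool beyond its target cannot be told apart from loss of the target and were not tested. With siNTRK2, 4 of the 7 mRNAs were called against senescent siCtrl cells: CDKN1A and CDKN2D were lower, and CDKN2A and CDKN2B were higher. Of all tested genes 21.1% were called in this comparison, and 0.957% when a log2 fold change over 1 was also required, which none of the inhibitors reached. With siBDNF only CDKN2B was called, upward, against 20.5% of all tested genes, and again none passed with the fold requirement, by which 0.609% of genes were called. CDKN2A was also called, upward, in 3 of the alternatives. Both comparisons share the senescent siCtrl libraries.

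CDKN1A mRNA was measured at 2087, 1955 and 2055 CPM in the siNTRK2 libraries and at 2753, 2766 and 2860 CPM in the siBDNF libraries. All siNTRK2 libraries lay below all siCtrl and siBDNF libraries, and the siBDNF and siCtrl libraries overlapped. Against senescent siCtrl cells the level was 1.42-fold lower with siNTRK2 (log2 fold change -0.50, SE 0.041, adjusted p = 2.80e-09 by edgeR), whereas with siBDNF the log2 fold change was -0.04 (95% interval -0.12 to 0.04, adjusted p = 0.548). The difference between the silenced groups was tested itself and passed (log2 fold change -0.46 for siNTRK2 against siBDNF, SE 0.041, adjusted p = 9.38e-09 by edgeR). Even so, CDKN1A stayed 2.17-fold above proliferating cells with siNTRK2 (log2 fold change 1.12, adjusted p = 2.76e-17 by edgeR) and 2.98-fold above with siBDNF (1.58, adjusted p = 2.28e-20).

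CDKN2B mRNA rose with both siRNAs, most with siBDNF. It stood at 38.5, 34.7 and 37.7 CPM with siNTRK2 and at 57.9, 58.2 and 54.4 CPM with siBDNF, against 30.3 to 31.1 CPM in senescent siCtrl libraries. The groups were ordered without any overlap, proliferating cells lowest and siBDNF highest. The log2 fold change against senescent siCtrl cells was 0.27 with siNTRK2 (SE 0.058, adjusted p = 0.00137 by edgeR) and 0.89 with siBDNF (SE 0.058, adjusted p = 7.62e-11), and siNTRK2 against siBDNF gave -0.62 (SE 0.057, adjusted p = 1.61e-08). By p-value CDKN2B ranked 13th of the 21518 tested genes in the siBDNF comparison. With siBDNF it was 3.18-fold above proliferating cells (log2 fold change 1.67, adjusted p = 8.97e-18 by edgeR), a larger rise than that of CDKN1A in the same cells on the point estimates, though the intervals of the log2 fold changes (1.55 to 1.79 and 1.49 to 1.66) overlap.

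CDKN2A, which lies next to CDKN2B, moved little. It was measured at 44.3, 37.4 and 44.1 CPM with siNTRK2 and at 40.1, 39.8 and 40.5 CPM with siBDNF. The lowest siNTRK2 library lay within the range of the siCtrl libraries, while all siBDNF libraries lay above it. The rise with siNTRK2 passed the test (log2 fold change 0.21, SE 0.066, adjusted p = 0.0251 by edgeR), but not when siCtrl replicate 2 or 3, or siNTRK2 replicate 1 or 3, was left out (adjusted p = 0.0633, 0.0639, 0.117 and 0.126). The call was kept in 10 of 14 alternatives. In those that left out no single library the log2 fold change lay between 0.20 and 0.32. With siBDNF the log2 fold change was 0.14 (95% interval 0.01 to 0.27, adjusted p = 0.140 by edgeR). It was called with library totals in place of TMM (0.20, adjusted p = 0.0287 by edgeR), with transcript length and base composition taken out (0.22, adjusted p = 0.00304) and with only the groups compared in the fit (0.14, adjusted p = 0.0388). The difference between the silenced groups was 0.07 (95% interval -0.06 to 0.19, adjusted p = 0.564).

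**Figure D3:**
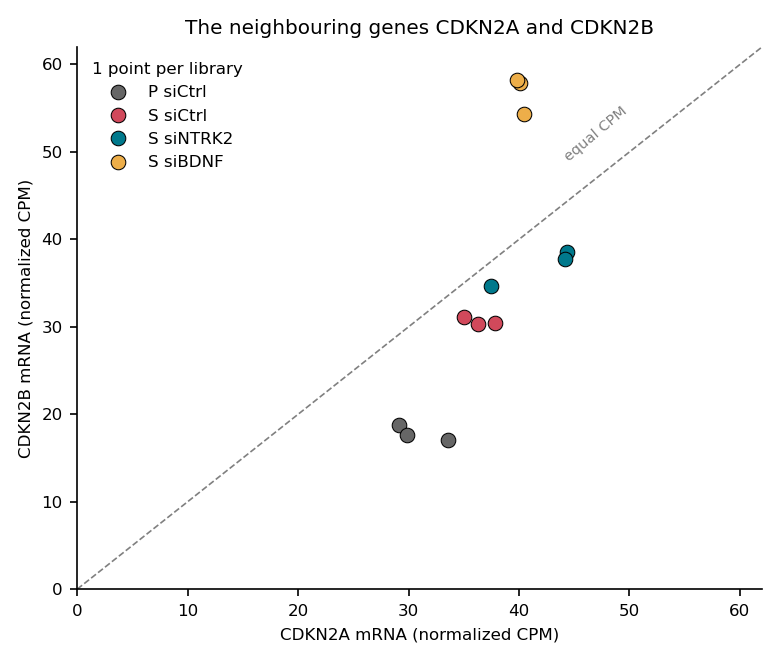
Normalized CPM of CDKN2A (horizontal axis) and CDKN2B (vertical axis) mRNA, 1 point per library, coloured by group; the dashed line marks equal CPM. The siBDNF libraries lie above the line, at 54.4 to 58.2 CPM of CDKN2B, and the libraries of the other 3 groups lie below it.

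The counts of CDKN2B were between 0.508 and 0.647 times those of CDKN2A in proliferating libraries, between 0.804 and 0.889 times in senescent siCtrl libraries, between 0.854 and 0.926 times with siNTRK2 and between 1.34 and 1.46 times with siBDNF. The ranges of senescent siCtrl and siNTRK2 libraries overlapped, and the others did not. These are ratios of counts without correction for length and describe the change of the ratio, not the order of the levels: per kilobase CDKN2A stayed above CDKN2B, at 41.0 against 14.8 with siBDNF. The antisense gene CDKN2B-AS1 (ANRIL) overlaps both genes on the other strand. Its mean level was between 0.336 and 0.857 CPM in the 4 groups. It was not called for senescence or for either siRNA against siCtrl (adjusted p = 0.487, 0.102 and 0.454 by edgeR for senescence, siNTRK2 and siBDNF) and was lower with siNTRK2 than in the proliferating group (by edgeR -1.36 on the log2 scale, adjusted p = 0.00973), although the libraries of these groups overlapped. A further antisense transcript, ENSG00000264545, covers both genes and was at 6.61 to 7.33 CPM on average, with log2 fold changes of -0.003, -0.09 and -0.15 that were not called. The libraries were made with a strand-preserving kit, but none of the sources says whether reads were counted by strand, so that reads of the overlaps may have been assigned to either gene.

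CDKN2D mRNA was measured at 6.08, 5.06 and 5.61 CPM with siNTRK2 and at 6.99, 6.37 and 5.73 CPM with siBDNF. The siNTRK2 libraries lay below all siCtrl libraries and overlapped those of proliferating cells. The drop with siNTRK2 just passed the test (log2 fold change -0.32, SE 0.11, adjusted p = 0.0323 by edgeR) and no longer did so when siCtrl replicate 1 or 2, or siNTRK2 replicate 2 or 3, was left out (adjusted p = 0.102, 0.0985, 0.139 and 0.0708), nor without the filter on low counts, with transcript length and base composition taken out, or with these groups fitted alone (0.0739, 0.126 and 0.0568). CDKN2D was the only inhibitor whose difference between siNTRK2 and proliferating cells did not pass the test (log2 fold change 0.11, 95% interval -0.11 to 0.32, adjusted p = 0.439 by edgeR). With siBDNF the log2 fold change against senescent siCtrl cells was -0.15 (95% interval -0.36 to 0.06, adjusted p = 0.389).

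The inhibitors that had fallen in senescence did not pass the test with either siRNA. CDKN1B mRNA was at 12.7, 11.8 and 11.4 CPM with siNTRK2 and at 12.9, 11.8 and 11.9 CPM with siBDNF. The siBDNF libraries lay above every siCtrl library, yet the log2 fold changes of 0.17 and 0.19 were not significant (adjusted p = 0.246 and 0.201 by edgeR; the 95% intervals reach 0.36 and 0.38). CDKN1C mRNA was between 2.05 and 2.83 CPM with siNTRK2 and between 2.79 and 2.84 CPM with siBDNF, overlapping the siCtrl libraries in both cases, with log2 fold changes of -0.18 (95% interval -0.47 to 0.12) and 0.04 (-0.25 to 0.33). CDKN2C mRNA stayed at 1.81 to 2.05 CPM with siNTRK2 and at 1.56 to 2.08 CPM with siBDNF, with log2 fold changes of 0.08 (95% interval -0.24 to 0.40) and -0.01 (-0.33 to 0.31). CDKN2C had 51 to 141 counts per library in these groups, and a change of it within these intervals cannot be told from no change.

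**Figure D4:**
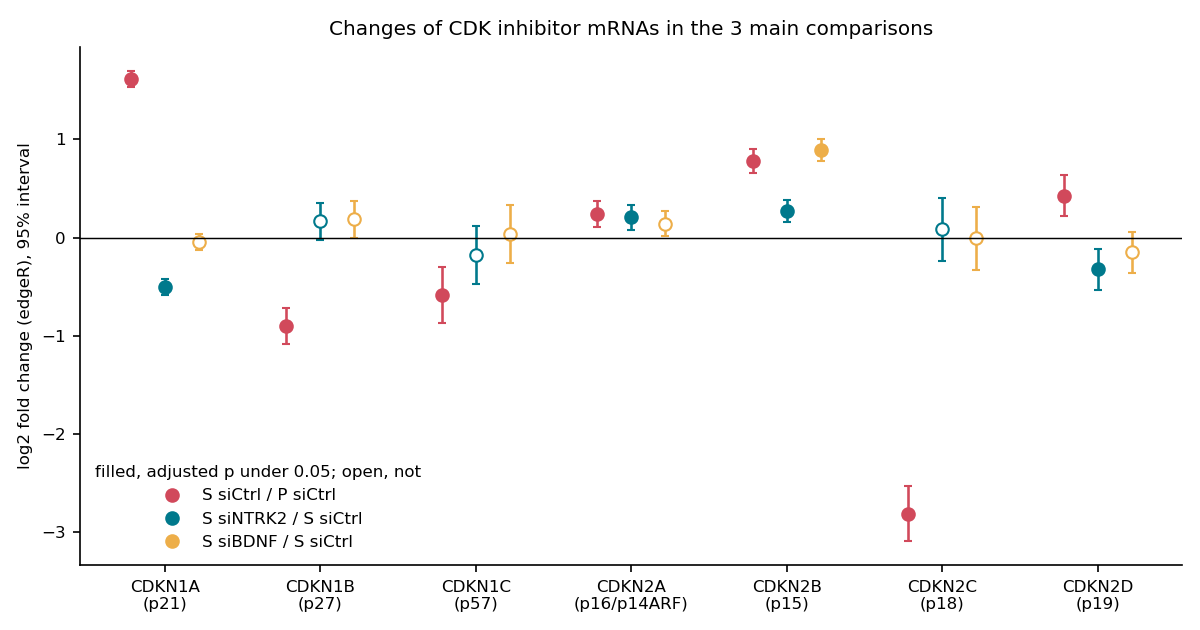
Log2 fold changes (vertical axis) with 95% intervals of the 7 CDK inhibitor mRNAs by edgeR, for senescent against proliferating siCtrl cells and for siNTRK2 and siBDNF against siCtrl in senescent cells; filled points have an adjusted p under 0.05. CDKN1A moves by -0.50 with siNTRK2 and -0.04 with siBDNF, and CDKN2B by 0.27 and 0.89.

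Set against each other, the silenced groups differed in CDKN1A and CDKN2B, both lower with siNTRK2, and the other 5 inhibitors were not called. In that comparison 16.7% of all genes were called, and 1.16% with the fold requirement, which no inhibitor met. Against proliferating cells, 6 inhibitors were called with siNTRK2 (3 higher and 3 lower, background 55.0%, or 14.8% with the fold requirement) and 7 with siBDNF (4 higher and 3 lower, background 58.7%, or 17.6%). The fold requirement left CDKN1A, CDKN2B and CDKN2C in both. The call of CDKN2D with siBDNF (log2 fold change 0.28, adjusted p = 0.0305 by edgeR) was lost without proliferating replicate 1 or 2 or without siBDNF replicate 1 or 2 (adjusted p between 0.0847 and 0.154), without the filter on low counts (0.0661) and with transcript length and base composition taken out (0.315). CDKN1A still made up between 93.5% and 94.0% of the inhibitor mRNA per kilobase with siNTRK2 and between 94.9% and 95.2% with siBDNF.

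The genes on which the inhibitors act were described from a list of 12 cyclins and CDKs. In senescence 4 rose and 7 fell: CCND1 and CCND2, cyclins that activate CDK4 and CDK6, were higher by 1.76 and 2.71 on the log2 scale, CCND3 by 0.60 and CCNE1 by 0.28, while the mitotic genes CDK1, CCNB1 and CCNB2 and the S-phase cyclin CCNA2 had log2 fold changes between -2.52 and -3.16. CDK2, CDK4 and CCNE2 fell by 0.44, 0.77 and 1.20, and CDK6, at -0.01, was not called. With siNTRK2, CDK1, CDK2, CCND2, CCNA2, CCNB1 and CCNB2 rose, by 0.76, 0.29, 1.58, 0.55, 0.54 and 0.65, and CCND1 and CCND3 fell by 0.15 and 0.18. With siBDNF, CDK2, CDK6 and CCND2 rose, by 0.29, 0.33 and 0.92, and CDK4 and CCND3 fell by 0.18 and 0.27. The medians of the list were -0.61 in senescence, 0.25 with siNTRK2 and -0.01 with siBDNF, beside 0.02, 0.00 and 0.00 over all tested genes. The counts of this and the following lists are to be read against the shares of all tested genes called as higher and as lower, which were 29.8% and 28.3% in senescence, 11.1% and 10.0% with siNTRK2 and 10.3% and 10.2% with siBDNF.

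Of 13 genes of the RB and E2F families, 12 fell in senescence, most E2F2 and E2F8 (log2 fold changes -2.83 and -2.72), and the repressor gene E2F7 rose (1.10). E2F7 rose further with both siRNAs (0.38 and 0.55). RBL1 (0.41) and E2F3 (0.24) also rose with siNTRK2, and E2F2, at 0.0477 CPM and so near the limit of detection, fell (-1.76), a call that was lost in 5 of the 12 alternatives that tested it, among them the fit without a filter on low counts and those without siCtrl replicate 1 or 2 or siNTRK2 replicate 1 or 2. Of 15 proliferation markers, 14 fell in senescence, most PLK1 and MKI67 (-3.69 and -3.68), and 1, PCNA, was not called (0.13, adjusted p = 0.0518 by edgeR), but was called as higher in 7 of 14 alternatives, DESeq2 among them (adjusted p = 0.0382). With siNTRK2, 9 of them rose and 2 fell, MKI67 by 1.72 and CENPF by 1.27 upward and PCNA by 0.30 and TYMS by 0.18 downward, and with siBDNF 3 rose (CENPF 0.93, MKI67 0.91 and MCM4 0.20) and RRM2 fell by 0.46. The medians of the markers were -2.08, 0.31 and -0.03 in these comparisons, and those of the RB and E2F list -0.42, 0.10 and 0.11. MKI67 mRNA was at 16.4 CPM in proliferating cells, 1.28 in senescent siCtrl cells, 4.19 with siNTRK2 and 2.35 with siBDNF.

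CDKN1A was set beside 18 other p53 targets. In senescence 15 of them rose, led by GDF15 (log2 fold change 2.52) and RRM2B (1.19), and BAX fell by 0.26, where 58.1% of all tested genes were called. With siNTRK2, 8 fell, led by GDF15 (-0.62) and FDXR (-0.39), and SESN1 rose (0.26), against 21.1% of all genes called; without siCtrl replicate 3, 5 genes of the list were called in place of 9. With siBDNF, where CDKN1A was not called, 7 rose, led by SESN1 (0.42) and BBC3 (0.28), and GADD45A fell by 0.14, against 20.5% of all genes called. The rise of RRM2B among them (0.17) turned to -0.04 when transcript length and base composition were taken out, and the number called went from 8 to between 3 and 5 with any siCtrl or siBDNF library left out. In the direct comparison of the silenced groups, 10 of the 18 were lower with siNTRK2, among them GDF15 and SESN2 (-0.65 and -0.39), and the other 8 were not called, where 7.86% of all genes were lower. The medians of the list were 0.51 in senescence, -0.11 with siNTRK2, 0.10 with siBDNF and -0.16 between the silenced groups. The part of the p53 targets or of the proliferation markers in the change of CDKN1A with siNTRK2 was not tested.

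**Figure D5:**
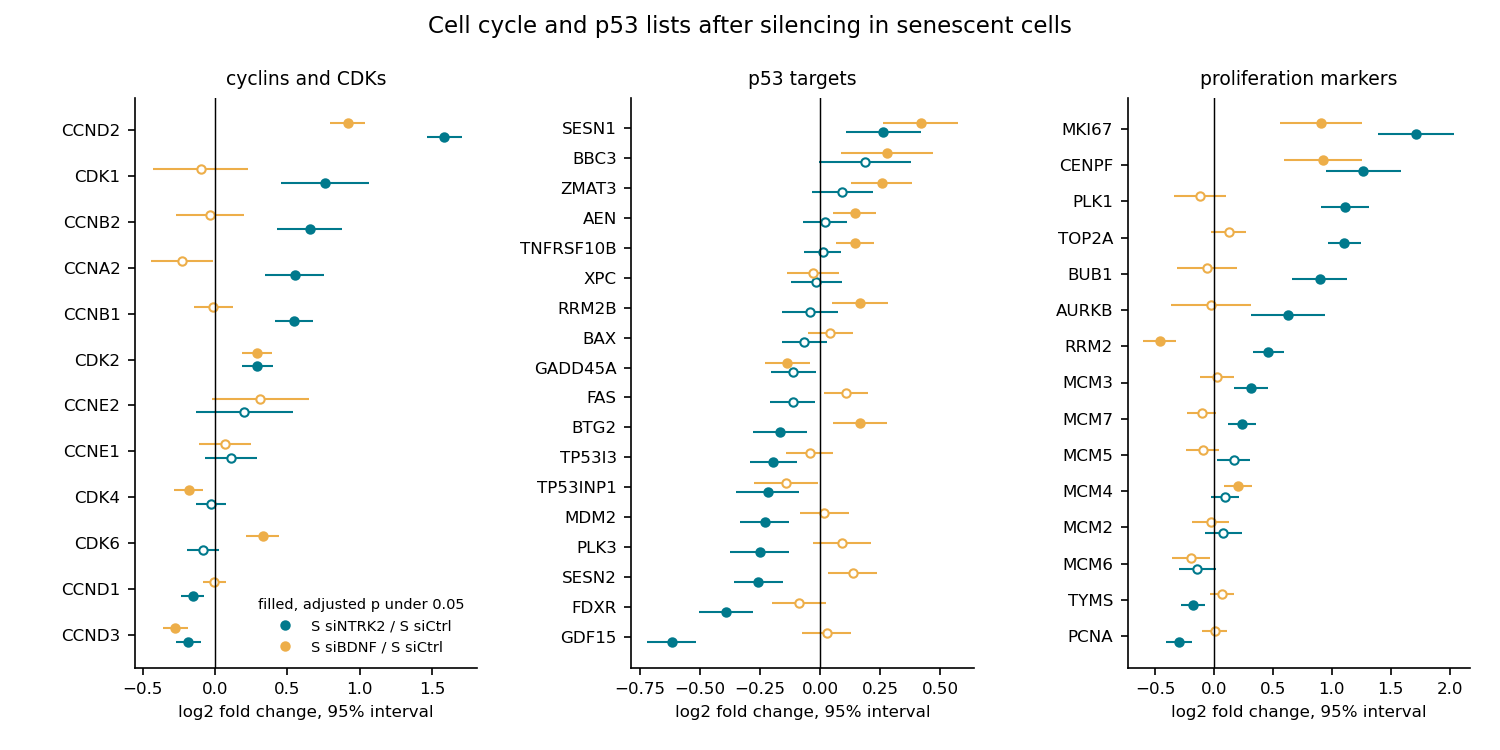
Log2 fold changes (horizontal axes) with 95% intervals by edgeR for the lists of cyclins and CDKs, other p53 targets and proliferation markers in senescent cells, siNTRK2 and siBDNF each against siCtrl; filled points have an adjusted p under 0.05. With siNTRK2, 8 of 18 p53 targets are lower and 9 of 15 proliferation markers higher; with siBDNF, 7 p53 targets and 3 proliferation markers are higher.

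Genes that control the inhibitors were described from 3 further lists. Of 13 transcriptional inputs, 5 rose and 7 fell in senescence, among them FOXO1 (3.36, from 0.0317 to 0.337 CPM, the first of which lies under the limit of detection), KLF4 (0.93) and ETS1 (-1.04). ETS1, an activator of CDKN2A, and SP1 rose with siNTRK2 (0.33 and 0.16) and MDM2 and ETS2 fell (-0.23 and -0.22). With siBDNF, where CDKN2B was highest, KLF4 (0.44) and MDM4 (0.48) led 5 genes that rose, and SMAD3, which carries TGF-β signals to CDKN2B, fell most (-0.31). Of 10 Polycomb genes, 6 fell in senescence, most EZH2 and CBX2 (-2.4 and -2.29), and CBX7 and EZH1 rose (0.73 and 0.36). With siNTRK2, 0 of them were called by edgeR at an adjusted p under 0.05 and 0 by DESeq2, while 4 had an unadjusted p under 0.05 by edgeR. With siBDNF, CBX2 and SUZ12 were called (0.64 and 0.24), 2 of 10 genes where 20.5% of all genes were called, so that this count is at the background. The medians of the Polycomb list were -0.34, -0.02 and 0.12, and those of the inputs -0.39, -0.02 and 0.09. Of 11 genes that degrade the inhibitor proteins, 6 fell in senescence, most DTL and SKP2 (-2.63 and -1.78), whose products direct p21 and p27 to the proteasome, and 3 rose, most DDB1 and SKP1 (0.29 and 0.17); the third, RNF123 (0.13), turned to -0.08 when transcript length and base composition were taken out. With siNTRK2, SKP2 and CUL1 rose (0.41 and 0.23) and DDB1 and SKP1 fell (-0.20 and -0.13). With siBDNF, FBXW7 and CUL1 rose (0.30 and 0.16) and DDB1 and SKP1 fell (-0.17 and -0.15). The medians of this list were -0.20, 0.04 and -0.03. In these comparisons 58.1%, 21.1% and 20.5% of all tested genes were called.

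The genes whose profile over the 12 libraries was most like that of each inhibitor were found by the root mean square difference of mean-centred log2 CPM, on which 0 is identity. For CDKN1A these were RRAD (0.083) and PLAT (0.096), whose log2 levels against proliferating cells were 1.67 and 1.64 with siCtrl, 1.19 and 1.07 with siNTRK2 and 1.67 and 1.36 with siBDNF. For CDKN2B they were FZD8 (0.11) and PCDH10 (0.14), at 1.64 and 1.67 above proliferating cells with siBDNF. CDKN2A was followed most closely by EPHA2 (0.050) and ENSG00000268854 (0.063), CDKN2C by SAPCD2 (0.24) and ARHGAP11A (0.24), CDKN1B by TBL1XR1 (0.097) and NRIP1 (0.097), CDKN1C by TTC30B (0.087) and ZMYM4-AS1 (0.10), and CDKN2D by RAB36 (0.074) and IGFBP6 (0.081). The 12 libraries fall into 4 groups, so that these values describe how group means line up and rest on few independent points. The root mean square of the inhibitors' own mean-centred profiles ran from 0.19 for CDKN2A to 1.22 for CDKN2C. The differences from the likest genes are therefore not to be compared between inhibitors.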

How the data were processed

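Raw reads per gene (counts) were deposited by the authors for each of the 12 libraries, without normalization. Per the labels and the study's methods, polyadenylated RNA was prepared with a stranded kit, demultiplexed with bcl2fastq 2.20.0.422, trimmed with Cutadapt, aligned to hg19 (Ensembl annotation) with STAR 2.4.0j and counted with featureCounts 1.6.4; the strand setting and the treatment of overlapping genes are not given in the sources used here, and gene counts do not separate transcripts from the alternative starts of CDKN2A.

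Counts were analysed in R 4.3.3 with edgeR 4.0.16: TMM normalization, filterByExpr (minimum count 10; 21518 genes kept), 1 quasi-likelihood fit with a term per group over all 12 libraries, and Benjamini-Hochberg adjustment over all tested genes. A gene was called at an adjusted p under 0.05; the study's rule, which also requires an absolute log2 fold change over 1, is given beside it. The study used DESeq2, run here as an alternative (1.42.0). Standard errors are on the log2 scale, and 95% intervals are 1.96 standard errors wide on each side. These intervals use the normal quantile, whereas the test allows for the uncertainty of the estimated spread. They are therefore somewhat narrower than the test implies, and an interval can exclude no change where the unadjusted p is over 0.05. The scripts were tested on simulated data. Positions and transcript lengths are from GENCODE on GRCh37, symbols from a table of gene names. Replicates differed by more than sampling noise in every pair (lowest chi-square per gene 3.92).

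The members and gene lists were chosen with earlier results of these data known. Named were all 7 inhibitors, every cyclin and CDK, the genes at the inhibitor loci, the silenced targets, up to 2 called genes with the largest changes in each direction per list, and 2 genes of most similar profile per inhibitor. Other genes named (E2F3, RNF123, single markers) were chosen after their values were seen. Some members of the lists are not reported here. Alternatives were DESeq2's test, DESeq2 size factors, library totals only, no filter, a floor of 10 counts per library, fits of each pair of groups alone, a replicate block, each library left out, the fold requirement, and an offset that takes out each library's trend with transcript length and GC share (natural spline, 4 degrees of freedom).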

Additional observations from a re-analysis of the deposited data

Results flagged for a closer look

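The effects of the siRNAs on 2 inhibitors differed in the direct comparison of siNTRK2 with siBDNF in senescent cells, which was tested in the same edgeR fit. CDKN1A mRNA was lower with siNTRK2 (log2 difference -0.46, SE 0.041, adjusted p = 9.38e-09, every siNTRK2 library below every siBDNF library). CDKN2B mRNA was lower with siNTRK2 (-0.62, SE 0.057, adjusted p = 1.61e-08, again without overlap), where both groups were above siCtrl cells. In the other fits tried, leaving out each library included, these log2 fold changes stayed between -0.43 and -0.50 for CDKN1A and between -0.57 and -0.66 for CDKN2B and kept an adjusted p under 0.05; neither reached the log2 fold change of 1 that the study also requires. Each group held only 3 libraries, and beyond leaving out each one in turn no search for outlying libraries is reported.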

How the results depend on the processing

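For the 7 inhibitors in 6 comparisons, 588 values were recomputed under the alternatives other than the fold requirement: 551 kept their direction and their side of the threshold, 19 lost their call, 3 gained one and 15 changed sign. In these fits CDKN1A, CDKN1B, CDKN1C, CDKN2B and CDKN2C kept their calls in senescence, and so did CDKN1A and CDKN2B with siNTRK2 and CDKN2B with siBDNF. With the requirement of a log2 fold change over 1 the inhibitors called went from 7 to 2 in senescence, from 4 to 0 with siNTRK2, from 1 to 0 with siBDNF, from 2 to 0 between the silenced groups, and from 6 and 7 to 3 and 3 against proliferating cells. Leaving out single libraries gave 2 to 3 of them with siNTRK2, 2 of them without siCtrl replicate 2 or without siNTRK2 replicate 3, and 6 to 7 for siBDNF against proliferating cells. With siBDNF, CDKN2A was called as a further gene, 2 in all, with library totals only (0.20, adjusted p = 0.0287 from edgeR), with the length and GC offset (0.22) and with only the groups compared (0.14). That offset moved the median of all genes in senescence from 0.02 to -0.11.

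All sign changes among the inhibitors were in values that were not called, while RNF123 and THY1, called in senescence, changed sign with the length and GC offset (0.13 to -0.08 and 0.20 to -0.02), as did RRM2B with siBDNF (0.17 to -0.04), CDK6 and DDB1 for siBDNF against proliferating cells (0.32 to -0.10 and 0.12 to -0.13) and EZH1 for siNTRK2 against proliferating cells (0.20 to -0.01). Of the genes of the other lists called in senescence (110), with siNTRK2 (56) and with siBDNF (48), 93, 39 and 25 were called in every such alternative; the call was lost in 7 or more of 14 for RNF123, SLC44A2 and TFDP2 in senescence, BTG2, PHLDA2, SKP1 and SLC22A18 with siNTRK2, and GADD45A, PDGFRB, RRM2B and SUZ12 with siBDNF. CDKN1A with siBDNF went to 0.015 with library totals and 0.0084 with the offset. CDKN2C with siBDNF went to 0.047 with library totals, 0.0027 without the filter, 0.00034 with at least 10 counts in every library, 0.028 with the offset and between -0.20 and 0.16 with a library left out, and with siNTRK2 between -0.11 and 0.26. CDKN1B between the silenced groups went to 0.022 with the offset and to between -0.063 and 0.023 with a library left out, and CDKN2D for siNTRK2 against proliferating cells to -0.015 with the offset. The cause was not tested. The number of all genes called fell from 4548 with siNTRK2 to 2943 and 3010 without siCtrl replicate 1 or 3, from 4412 with siBDNF to 2914 without siBDNF replicate 2, and from 3595 between the silenced groups to 2286 without siBDNF replicate 3.

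Libraries with the same replicate number did not deviate together (mean correlation 0.00184, against -9.36e-04 for other numbers), so the numbers were not taken as pairs; with them as a replicate block, 7, 4 and 1 inhibitors were called in senescence, with siNTRK2 and with siBDNF, as without it, and 12488, 4553 and 4434 of all genes.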

Other observations

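Of 15 genes at the inhibitor loci, 4 rose and 4 fell in senescence, a share near that of all tested genes (29.8% higher and 28.3% lower), so that nothing particular to these loci is read from the count. Around CDKN1A, which rose, SRSF3, a splicing factor gene, fell by 1.19 on the log2 scale and CPNE5, at under 1 CPM, rose (1.44). Around CDKN2C, which fell, its neighbour FAF1 fell by 0.57 and RNF11 rose (0.56). MTAP, the metabolic gene beside CDKN2A and CDKN2B, fell by 0.19 in senescence and rose with siNTRK2 (0.17) and siBDNF (0.19). At the imprinted cluster of CDKN1C, PHLDA2 and SLC22A18 were not called in senescence (0.01 and -0.05) and fell with siNTRK2 (-0.19 and -0.29) and siBDNF (-0.25 and -0.41), while KCNQ1 and KCNQ1OT1 were not called in senescence or with either siRNA against siCtrl (KCNQ1OT1 between 0.592 and 0.931 CPM on average). Next to CDKN2D, KRI1 rose in senescence (0.21), SLC44A2 fell with both siRNAs (-0.21 and -0.39), and AP1M2 was not called in senescence or with either siRNA against siCtrl. The small difference of SLC44A2 in senescence (-0.10) was called in the main test and lost its call in 9 of 14 alternatives, DESeq2 and library totals among them. GPR19, which overlaps CDKN1B on the other strand, rose in senescence (1.70) from 0.101 to 0.314 CPM, and APOLD1 was not called in senescence or with either siRNA against siCtrl.

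Of the 10 fibroblast markers, 8 fell in senescence, most PDGFRB and COL3A1 (-1.30 and -1.13), and THY1 rose (0.20), which turned to -0.02 when transcript length and base composition were taken out. With siNTRK2, 6 rose, led by FAP and COL3A1 (0.74 and 0.52), and THY1 fell (-0.25), while with siBDNF FAP and COL1A2 rose (0.34 and 0.22) and 6 fell, most DCN and THY1 (-0.64 and -0.54). In senescence the endothelial genes VWF and KDR rose (1.20 and 1.89) and TIE1 fell (-1.32), at mean levels of at most 2.05 CPM. By DESeq2's test 3 of the endothelial markers were higher and 0 lower, so that the fall of TIE1 was not called. The epithelial genes CDH1 and KRT19 rose (3.54 and 1.52), KRT19 then falling with siNTRK2 (-0.33). KDR, TIE1 and CDH1 had under 10 counts in some library, so that the sizes of their changes are uncertain.

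Of the other marker lists, smooth muscle genes summed to between 384.7 and 535.4 CPM, with CNN1 and SMTN higher (0.71 and 0.81) and ACTG2 lower (-0.63) in senescence. CD68, a lysosomal gene listed as an immune marker, was at 52.98 CPM in proliferating cells, 109 in senescent siCtrl cells, 77.5 with siNTRK2 and 180 with siBDNF, and was called in each comparison of these groups (log2 fold changes 1.05 in senescence, -0.50 with siNTRK2, 0.71 with siBDNF and -1.21 for siNTRK2 against siBDNF). Like CDKN2B it was highest with siBDNF, and like CDKN1A it was lower with siNTRK2 than with siCtrl; no relation between these genes was tested. PTPRC, the general leukocyte gene, reached 0.944 CPM in senescent siCtrl cells and 1.0 CPM with siBDNF on average, while CD3E had group means of at most 0.155 CPM.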
